A study of Mus musculus with 7 samples.

Results

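Sphingosine-1-phosphate is a lipid messenger made inside cells, carried out of them and read by receptors on other cells. The 9 genes described here cover that route in mouse fetal liver blood progenitors, out of 22680 genes in the deposited table. They are the transporters Mfsd2b and Spns2, the kinases Sphk1 and Sphk2, the lyase Sgpl1 and the receptors S1pr1, S1pr2, S1pr3 and S1pr4. The set was chosen by gene name, with earlier results of these data known, among them the higher level of Mfsd2b in Uhrf1-/- cells. The values that compare the genotypes are therefore given for the 9 genes as a description, and their p-values are not given.

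RNA sequencing was done on 7 libraries from livers of C57BL/6 fetuses at 13.5 days post coitum. LSK cells are lineage-negative cells with Sca-1 and c-Kit on their surface, and they hold the hematopoietic stem cells and multipotent progenitors. LSK cells were profiled in 3 wild-type and 3 Uhrf1-/- libraries. Another library held wild-type LK cells, which carry c-Kit without Sca-1 and are further along in differentiation. Uhrf1 encodes a protein needed to copy DNA methylation to new DNA strands. The sources used here do not state how the Uhrf1 allele was deleted or how many fetuses went into each library. If replicates of a group came from the same animals, the spread between them is technical.

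The kinases phosphorylate sphingosine to sphingosine-1-phosphate, and the lyase destroys it irreversibly. Spns2 exports it from endothelial cells, and Mfsd2b exports it from red cells and platelets, which load the blood plasma. Lymphocytes and blood progenitors sense the high level in blood and lymph through the receptors, S1pr1 above all, and this draws them out of tissues.

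Estimated read totals ran from 16808501 to 25802934 per library. The level of Uhrf1 was 63.0, 66.8 and 112.8 FPKM (fragments per kilobase of transcript, scaled to the mapped fragments of a library) in wild-type LSK, 10.2, 8.78 and 18.6 FPKM in Uhrf1-/- LSK and 115.9 FPKM in LK cells, which follows the labels. Ly6a, which encodes Sca-1, stood at 26.4 to 96.4 FPKM in the LSK libraries and at 0.321 FPKM in the LK library. Kit was present in all 7 libraries, at 24.4 to 56.6 FPKM. Some libraries stood apart from the rest. Immediate-early genes, which rise within minutes of stimulation or handling, summed to 82.8 and 157 FPKM in replicate 3 of wild-type and Uhrf1-/- LSK and to 1340 to 1860 FPKM in replicates 1 and 2. The LK library had 47.6 FPKM, the lowest of the 7. Macrophage markers summed to 25.4 and 17.5 FPKM in replicate 3, 52.9 to 170 FPKM in replicates 1 and 2 and 18.0 FPKM in LK cells. Transcripts of ribosomal proteins were scarce in wild-type LSK replicate 2, with 4.75% of its count column, against 10.6% to 15.7% in the other 6 libraries.

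Sequence upstream of 3 members is shown as examples, chosen by their levels. Mfsd2b and Sphk1 were the members highest in LK cells relative to LSK cells, and S1pr4 was the receptor with the highest mean in each group. Each run is the 250 bases before an annotated transcript start, 5′ to 3′ on the gene's strand, from RefSeq (GRCm38.p6). Capitals mark matches on either strand to CCACCC, a core of sites bound by erythroid Krüppel-like factors, or to a GATA-type motif, which is AGATAA or the variant TGATAA with another first base, or AGATAG or the variant TGATAG with another last base.
Mfsd2b, minus strand, chr12:4874360-4874609: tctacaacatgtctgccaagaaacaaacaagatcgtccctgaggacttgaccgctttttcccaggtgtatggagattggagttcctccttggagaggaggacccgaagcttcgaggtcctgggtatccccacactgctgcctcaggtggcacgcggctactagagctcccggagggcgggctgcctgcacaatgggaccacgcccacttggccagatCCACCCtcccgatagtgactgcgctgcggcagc
Sphk1, plus strand, chr11:116532194-116532443: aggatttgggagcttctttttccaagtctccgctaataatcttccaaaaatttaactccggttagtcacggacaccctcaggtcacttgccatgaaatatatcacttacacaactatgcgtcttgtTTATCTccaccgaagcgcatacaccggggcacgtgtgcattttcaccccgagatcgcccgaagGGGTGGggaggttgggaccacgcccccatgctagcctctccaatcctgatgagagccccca
S1pr4, minus strand, chr10:81500138-81500387: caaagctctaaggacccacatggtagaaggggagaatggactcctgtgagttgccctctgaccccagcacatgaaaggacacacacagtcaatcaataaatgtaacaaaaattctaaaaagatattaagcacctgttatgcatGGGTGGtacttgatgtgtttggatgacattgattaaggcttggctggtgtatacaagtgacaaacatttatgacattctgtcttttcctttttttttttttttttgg

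The Mfsd2b window held CCACCC, whose first base lies 33 bases before the start, and no GATA-type match. The Sphk1 window held GGGTGG, the reverse complement of CCACCC, 61 bases before the start and TTATCT, the reverse complement of AGATAA, 124 bases before it. Sphk1 has 5 windows in the RefSeq table, and the one printed was chosen after its matches were seen, because it holds both motifs and no annotated exon of the gene. Its start lies inside the gene, 1608 bases from the 5′ end. The Sphk1 window nearest that end, whose start lies 264 bases from it, holds 0 matches to either motif. The S1pr4 window held GGGTGG 107 bases before the start. Over all 32851 such windows, 28.1% hold CCACCC and 26.5% hold a GATA-type match on either strand, so these matches are common. The Mfsd2b window has 12 CpG dinucleotides, an observed to expected ratio of 0.542, above the median of all windows (0.373). The S1pr4 window has 0 CpG dinucleotides, as do 7.87% of all windows. Methylation was not measured in these libraries.

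The transporters differed in opposite directions between LK and wild-type LSK cells, while both were higher in Uhrf1-/- than in wild-type LSK cells. Mfsd2b (Entrez gene 432628; chromosome 12, 4862438 to 4874359 of GRCm38, minus strand) was low in wild-type LSK cells, at 1.26, 2.67 and 1.47 FPKM. In Uhrf1-/- LSK cells it stood at 12.2, 11.0 and 9.70 FPKM, and in LK cells at 30.2 FPKM. The 3 groups did not overlap, and the lowest Uhrf1-/- library was 3.64 times the highest wild-type LSK library. The mean was 1.80 ± 0.757 FPKM (SD, n = 3) in wild-type and 10.96 ± 1.23 FPKM (SD, n = 3) in Uhrf1-/- LSK cells, a ratio of 6.08. These values rest on an estimated 70 to 205 reads in the wild-type LSK libraries, 653 to 723 in the Uhrf1-/- libraries and 2042 in the LK library.

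On the log2(FPKM + 1) scale, which understates changes of low genes, Mfsd2b differed by 2.12 (SE 0.28) between the genotypes. The differences for replicate numbers 1, 2 and 3 were 2.54, 1.71 and 2.11. Mfsd2b was the 1 member past an adjusted p of 0.05 in the limma fit over 10608 genes, where 0.170% of the genes passed in either direction, 0.113% as higher and 0.0566% as lower in Uhrf1-/- cells. With the replicate number as a block it was again the 1 member past the threshold, among 2.06% of the genes. Nothing is read from these counts, since the gene was known to have passed when the set was drawn up. It did not pass without any 1 of the 6 LSK libraries (log2 differences of 1.98 to 2.33), without both replicate-3 libraries (2.13), or without the filter on low genes (2.12). Over all genes, those 8 fits called 0 to 3 as higher in Uhrf1-/- cells, beside 12 in the limma fit above. The loss of the call was thus not particular to Mfsd2b.

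Markers of the lineages known for Mfsd2b were read beside it. The 12 erythroid markers summed to 75.0 to 315 FPKM in wild-type LSK, 284 to 335 FPKM in Uhrf1-/- LSK and 1620 FPKM in LK cells. The red cell genes Alas2 and Slc4a1 were under 1 FPKM in all 6 LSK libraries. The 12 megakaryocyte markers summed to 107 to 194, 190 to 278 and 44.3 FPKM, and Gp6, Ppbp and Itgb3 were under 1 FPKM in all LSK libraries. The sums of the genotypes overlapped for both lists. For the erythroid list they did so through wild-type replicate 1, where Hbb-b1 stood at 178.4 FPKM and Hba-a1 at 79.5 FPKM. In LK cells, where Mfsd2b was highest, the erythroid sum was highest and the megakaryocyte sum lowest. Genotype ranges did not overlap for 4 of 8 tested erythroid markers as higher (Gata1, Klf1, Epor and Car1) and 1 as lower (Tfrc). Of 8 tested megakaryocyte markers they were apart for 4 as higher and 0 as lower, beside 4.61% and 6.16% of all genes tested. Of 8 tested erythroid markers, limma called 2 higher (Gata1 and Car1) and 0 lower, while 5 had a positive and 3 a negative difference. With the replicate block 3 were called higher and 1, Rhd, lower. Of 8 tested megakaryocyte markers, 2 were called higher (Itga2b and Treml1), or 4 with the block, and 0 lower. Over all genes tested, 0.113% were called higher and 0.0566% lower, or 1.23% and 0.830% with the block. The part of erythroid and megakaryocyte cells in the level of Mfsd2b was not tested. In libraries of sorted cells in bulk, a change in the number of cells of a type and a change in RNA per cell cannot be told apart.

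Spns2 (Entrez gene 216892; chromosome 11, 72451638 to 72489976, minus strand) had the highest level of the 9 genes in every group. It stood at 85.6, 75.9 and 70.9 FPKM in wild-type LSK, 115.1, 104.6 and 120.9 FPKM in Uhrf1-/- LSK and 38.3 FPKM in LK cells. All Uhrf1-/- libraries were above all wild-type LSK libraries, and the LK library was below all 6. Group means were 77.5 ± 7.5 and 113.6 ± 8.29 FPKM (SD, n = 3 each), a ratio of 1.47. The log2 difference was 0.55 (SE 0.26), and it was positive for each replicate number, at 0.42, 0.46 and 0.76. It stayed between 0.43 and 0.62 under the 13 alternative settings tried, and the gene did not pass the threshold in any of them.

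Endothelial cells are the best known source of Spns2 activity, so their markers were read beside it. The 13 endothelial markers summed to 496 to 797 FPKM in wild-type LSK, 476 to 546 FPKM in Uhrf1-/- LSK and 141 FPKM in LK cells. Egfl7 made up most of this sum, at 351.3 to 669.9 FPKM in the LSK libraries. Other genes of the list were well expressed in the LSK libraries, among them Esam at 20.3 to 57.1 FPKM, Tie1 at 15.1 to 24.3 FPKM and Emcn at 12.6 to 23.5 FPKM. In LK cells Esam, Tie1 and Emcn stood at 0.762, 1.91 and 0.626 FPKM. The vascular receptor gene Kdr and the sinusoidal markers Stab2, Lyve1 and Oit3 were under 1 FPKM in all 6 LSK libraries. Cdh5, which encodes the junction protein VE-cadherin, stood at 0.542 to 1.60 FPKM in LSK cells and 0.0372 FPKM in LK cells. Of 9 tested endothelial markers, 0 were called by limma in either fit and 0 had an unadjusted p under 0.05. The genotype ranges did not overlap for 2 of the 9, Esam and Cdh5, both higher in Uhrf1-/- cells, beside 4.61% of all genes tested. Their Uhrf1-/- means were 1.54 and 1.83 times the wild-type means, beside 1.47 times for Spns2. Of the 9 markers, 6 had a positive and 3 a negative difference. The 3 were Emcn, Egfl7 and Pecam1, whose Uhrf1-/- means were 0.668, 0.77 and 0.788 times the wild-type means. In bulk libraries, transcripts of endothelial cells and of the LSK cells themselves cannot be told apart. The part of endothelial cells in the level of Spns2 was not tested.

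The balance between the transporters differed by group. Mfsd2b made up 1.45%, 3.40% and 2.04% of the summed FPKM of the pair in wild-type LSK, 9.55%, 9.53% and 7.42% in Uhrf1-/- LSK and 44.1% in LK cells. The sum itself was 72.4 to 86.9 FPKM in wild-type LSK, 115.6 to 130.6 FPKM in Uhrf1-/- LSK and 68.5 FPKM in LK cells. The LK library was thus near the wild-type LSK libraries in the sum and apart from them in the share.

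**Figure D1:**
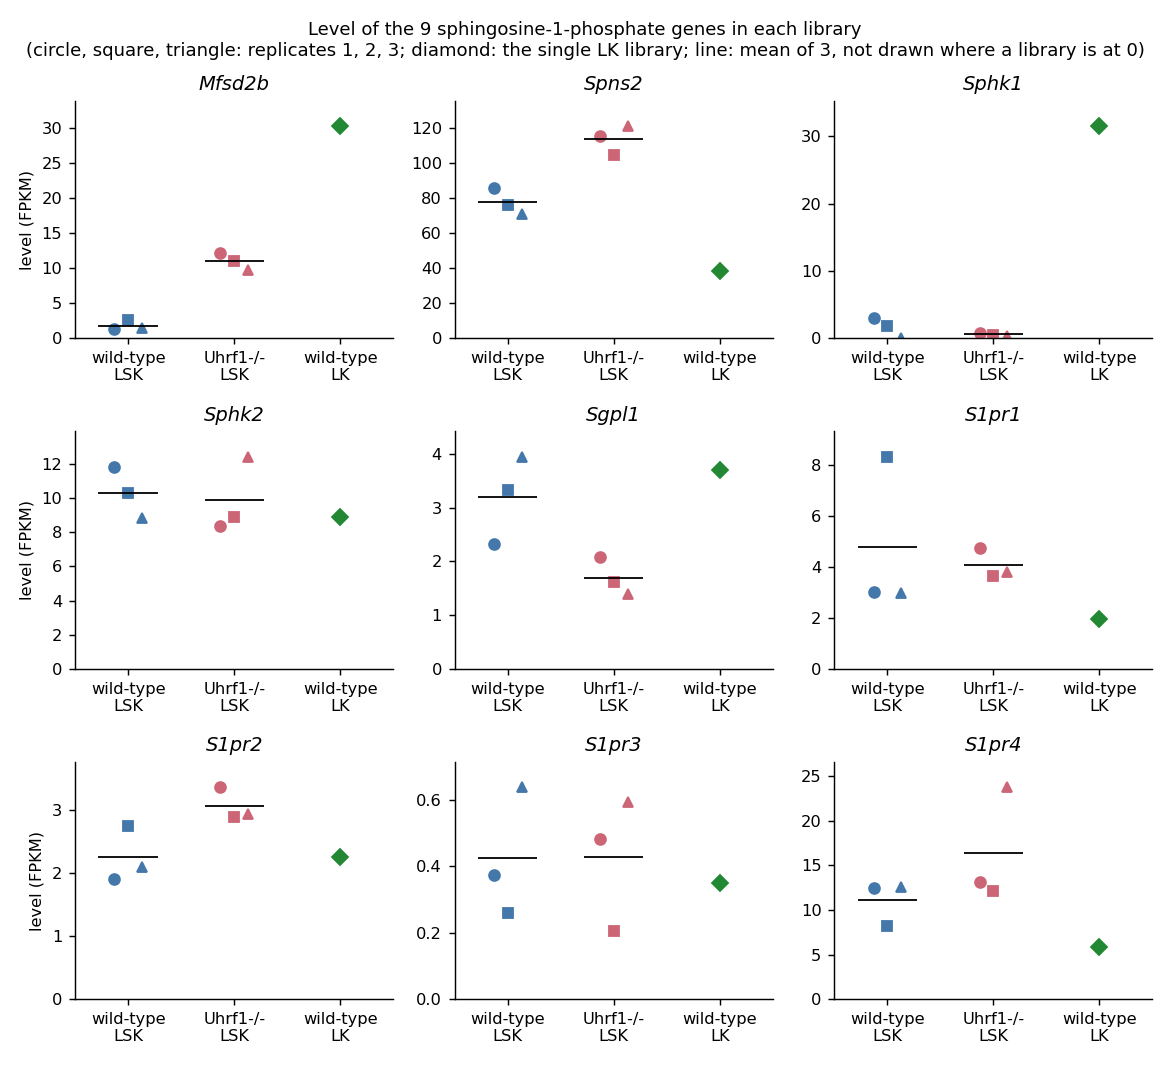
Level in FPKM (y axis, linear from 0) of each of the 9 genes in wild-type LSK, Uhrf1-/- LSK and wild-type LK libraries (x axis). Points are single libraries and lines are means of 3 libraries. Mfsd2b separates the 3 groups, Sphk1 is high in LK alone at 31.5 FPKM, and Spns2 is lowest in LK at 38.3 FPKM.

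Among the kinases, Sphk1 was high in LK cells and low in LSK cells of either genotype. Sphk1 (Entrez gene 20698; chromosome 11, 116530836 to 116536675, plus strand) stood at 3.0 and 1.80 FPKM in wild-type LSK replicates 1 and 2 and was listed at 0 in replicate 3. The Uhrf1-/- libraries had 0.807, 0.533 and 0.410 FPKM, an estimated 17, 11 and 9 reads, and lay within the wild-type range. The LK library had 31.5 FPKM, an estimated 955 reads and 10.5 times the highest LSK library. The genotype difference was -1.15 and -0.87 for replicate numbers 1 and 2 and 0.50 for replicate number 3, where the wild-type value was the one listed at 0. Mfsd2b and Sphk1 were thus both high in LK cells, while in Uhrf1-/- LSK cells Mfsd2b alone lay above the wild-type range.

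Sphk2 (Entrez gene 56632; chromosome 7, 45709463 to 45718002, minus strand), the other kinase, varied little. It stood at 11.8, 10.3 and 8.86 FPKM in wild-type LSK, 8.37, 8.92 and 12.4 FPKM in Uhrf1-/- LSK and 8.87 FPKM in LK cells. The ranges overlapped, and the log2 genotype difference was -0.06 (SE 0.27). In GENCODE M21, 13.0% of its exonic bases also lie in exons of Dbp and 8.97% in exons of the ribosomal protein gene Rpl18, both on the opposite strand. Rpl18 was at 1149 to 5034 FPKM in these libraries, and the sources used here do not state whether reads were assigned by strand. The level of Sphk2 is uncertain for that reason. Smaller overlaps on the opposite strand touch 3.21% of the exonic bases of Spns2 (Mybbp1a) and 4.02% of those of Sphk1 (Gm29292). Sphk1 made up 0% to 20.2% of the summed kinase FPKM in the 6 LSK libraries and 78.0% in LK cells.

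**Figure D2:**
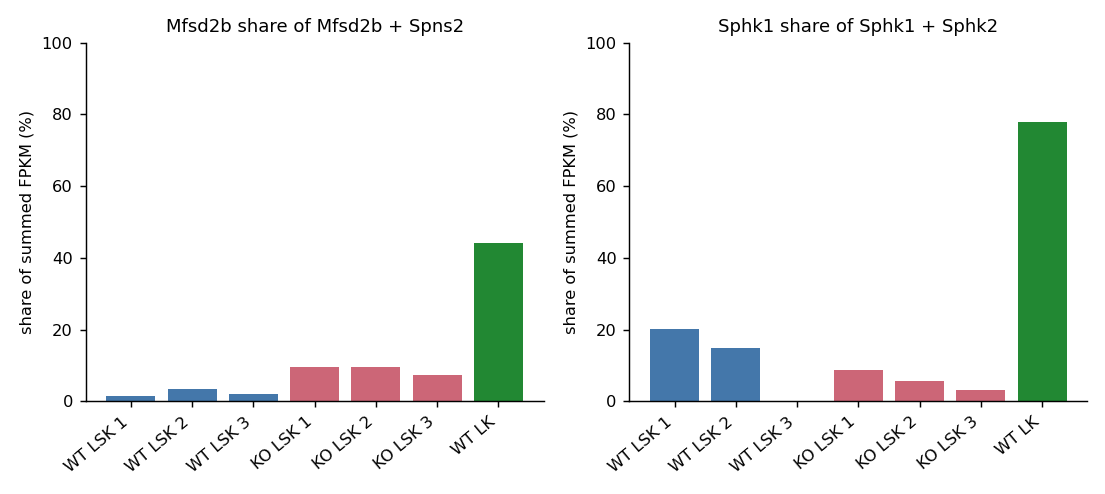
Mfsd2b as a percentage of the summed FPKM of Mfsd2b and Spns2 (left) and Sphk1 as a percentage of the summed FPKM of Sphk1 and Sphk2 (right), 1 bar per library (WT, wild-type; KO, Uhrf1-/-; the number is the replicate). The LK library reaches 44.1% and 78.0%, and the Uhrf1-/- LSK libraries exceed the wild-type LSK libraries on the left and not on the right.

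Sgpl1 (Entrez gene 20397; chromosome 10, 61098642 to 61147684, minus strand), the lyase, was lower in each Uhrf1-/- library than in each wild-type LSK library. It measured 2.32, 3.34 and 3.95 FPKM in wild-type and 2.09, 1.61 and 1.40 FPKM in Uhrf1-/- LSK cells. The gap was small, since wild-type replicate 1 and Uhrf1-/- replicate 1 differed by -0.11 on the log2 scale, against -0.73 and -1.05 for replicate numbers 2 and 3. Group means were 3.20 ± 0.822 and 1.70 ± 0.353 FPKM (SD, n = 3 each), and the log2 difference was -0.63 (SE 0.26). The LK library, at 3.69 FPKM, lay inside the wild-type LSK range. The summed kinase level was 2.25 to 6.39 times the lyase level in wild-type LSK, 4.40 to 9.19 times in Uhrf1-/- LSK and 10.9 times in LK cells, so the genotypes overlapped in this ratio.

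S1pr4 and S1pr1 were the most abundant receptor transcripts in LSK cells. S1pr4 (Entrez gene 13611; chromosome 10, 81497745 to 81500137, minus strand), a receptor found mainly on blood cells, measured 12.5, 8.16 and 12.6 FPKM in wild-type LSK and 13.1, 12.2 and 23.7 FPKM in Uhrf1-/- LSK cells. The LK library had 5.89 FPKM, below all 6 LSK libraries. The genotypes overlapped, and Uhrf1-/- replicate 3 alone stood well above the rest. The log2 difference was 0.48 (SE 0.32) with all libraries and 0.20 without Uhrf1-/- replicate 3. The means were 11.1 ± 2.53 and 16.4 ± 6.42 FPKM (SD, n = 3 each).

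S1pr1 (Entrez gene 13609; chromosome 3, 115710433 to 115715055, minus strand), the receptor that carries lymphocytes out of lymphoid organs, measured 3.01, 8.32 and 2.96 FPKM in wild-type and 4.76, 3.66 and 3.8 FPKM in Uhrf1-/- LSK cells. Wild-type replicate 2, the library with the low ribosomal protein share, was the high value. The log2 difference was -0.07 (SE 0.35) with that library and turned to 0.34 without it, so these data give S1pr1 no steady direction. The LK library had 1.94 FPKM, the lowest of the 7. Klf2, a transcription factor that drives S1pr1 in T cells, measured 146.3, 117.5 and 0.708 FPKM in wild-type LSK and 58.7, 58.6 and 2.11 FPKM in Uhrf1-/- LSK cells. Cd69, whose product takes S1pr1 off the surface of lymphocytes, stood at 36.2, 55.1 and 10.3 FPKM and at 24.8, 31.9 and 3.36 FPKM. Klf2 and Cd69 were low in replicate 3 of either genotype, where immediate-early genes were low too, and S1pr1 did not share that pattern.

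S1pr2 (Entrez gene 14739; chromosome 9, 20965952 to 20976793, minus strand), a receptor that restrains migration, stood at 1.90, 2.74 and 2.09 FPKM in wild-type LSK, 3.35, 2.89 and 2.94 FPKM in Uhrf1-/- LSK and 2.25 FPKM in LK cells. All Uhrf1-/- libraries were above all wild-type LSK libraries, but the lowest was only 1.06 times the highest wild-type one. The log2 difference was 0.33 (SE 0.24). S1pr3 (Entrez gene 13610; chromosome 13, 51408618 to 51422797, plus strand) was at 0.260 to 0.638 FPKM in wild-type LSK, 0.205 to 0.595 FPKM in Uhrf1-/- LSK and 0.351 FPKM in LK cells. It was the 1 of 9 members under the mean of 1 FPKM required for the test.

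The receptors together summed to 17.8, 19.5 and 18.3 FPKM in wild-type LSK, 21.7, 18.9 and 31.1 FPKM in Uhrf1-/- LSK and 10.4 FPKM in LK cells. S1pr4 made up 41.9% of this sum in wild-type replicate 2 and 60.4% to 76.4% in the other 5 LSK libraries. In LK cells S1pr4 gave 56.4%, S1pr2 21.6% and S1pr1 18.6%. The LK library was lowest in the sum of the receptors, as it was in Spns2. The 12 lymphoid markers were read beside the receptors, and they summed to 136 to 432 FPKM in wild-type LSK, 60.8 to 208 FPKM in Uhrf1-/- LSK and 17.8 FPKM in LK cells. Of these, Dntt, Rag1 and Cd3e were under 1 FPKM in all 6 LSK libraries. Of 9 tested lymphoid markers, limma called 2 lower in Uhrf1-/- cells (Ccr9 and Lax1), or 7 with the replicate block, and 0 higher. Over all genes tested, 0.0566% were called lower, or 0.830% with the block. The part of lymphoid cells in the receptor levels was not tested.

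**Figure D3:**
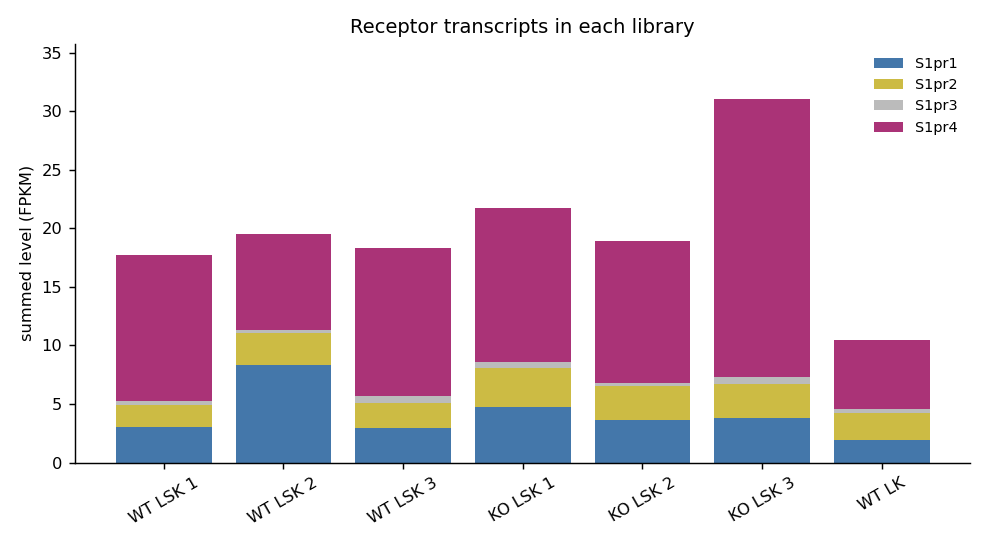
Summed level in FPKM (y axis) of the 4 receptor transcripts in each of the 7 libraries (x axis; WT, wild-type; KO, Uhrf1-/-; the number is the replicate), with 1 colour per receptor. S1pr4 is the largest part in every library but WT LSK 2, where S1pr1 at 42.7% is slightly larger, and the sum is lowest in LK at 10.4 FPKM.

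Ranges of the genotypes did not overlap for 4 of the 8 tested members. Mfsd2b, Spns2 and S1pr2 were higher and Sgpl1 lower in Uhrf1-/- cells. Of all genes tested, 10.8% had ranges that did not overlap, 4.61% as higher and 6.16% as lower, and nothing is read from the members' count because this comparison was known when they were chosen. The median log2 difference of the 8 members was 0.13, beside -0.03 over all genes tested. Apart from Mfsd2b, the members' log2 differences lay between -0.63 and 0.55.

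**Figure D4:**
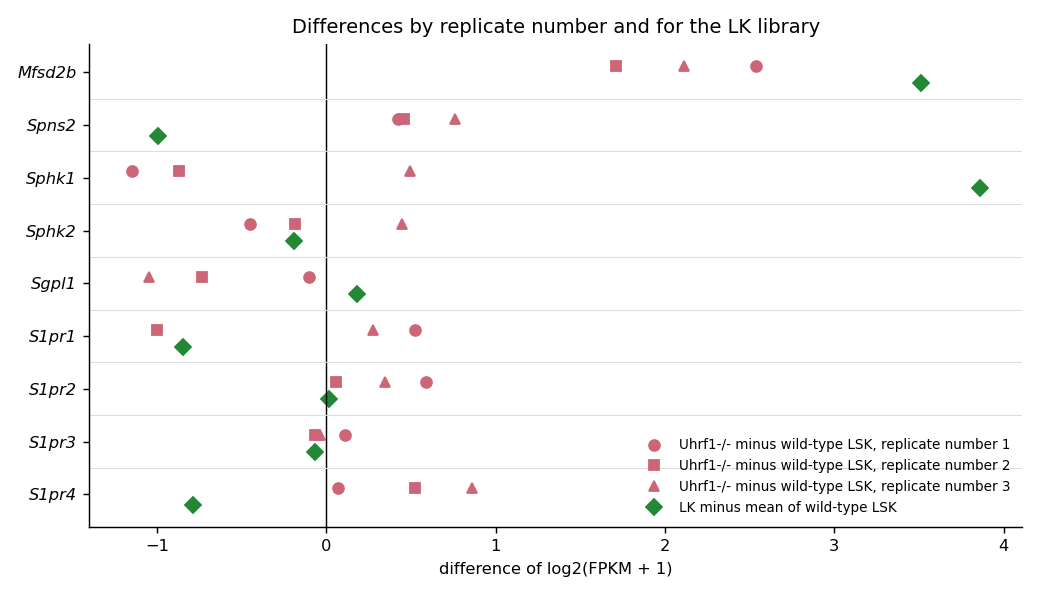
Difference of log2(FPKM + 1) (x axis) for each gene (y axis), as Uhrf1-/- minus wild-type LSK for replicate numbers 1, 2 and 3 and as LK minus the mean of the 3 wild-type LSK libraries. Mfsd2b lies at 1.71 to 2.54 for all 3 numbers, Spns2 at 0.42 to 0.76, and the kinases and S1pr1 fall on both sides of 0.

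The LK library was compared with the wild-type LSK libraries without a test, since it has no replicate. A gene was called where LK lay outside the wild-type LSK range and at least 1 away from the mean on the log2 scale, which held for 21.5% of 10680 genes. Of the 8 members with enough expression, Mfsd2b and Sphk1 were called, both higher in LK, by 3.51 and 3.86. Spns2 fell just inside the limit at -0.99, with LK at 0.495 times the mean of wild-type LSK cells. S1pr1 and S1pr4 lay below the range at -0.85 and -0.79. Sphk2, Sgpl1 and S1pr2 lay inside the range. With a pseudocount of 0.1 FPKM, on the count values or without wild-type replicate 3, Spns2 and S1pr1 were called as well. S1pr1 joined also without replicate 1, and Spns2 without replicate 2.

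The order of the members by level was not the same in the groups. In wild-type LSK cells Spns2 was followed by S1pr4 and Sphk2, which overlapped, and then by S1pr1, Sgpl1, S1pr2, Mfsd2b, Sphk1 and S1pr3, each of which overlapped the next. In Uhrf1-/- LSK cells Mfsd2b came after Spns2 and S1pr4 and overlapped Sphk2. S1pr1, S1pr2, Sgpl1 and Sphk1 followed without overlap between neighbours, and Sphk1 overlapped S1pr3. In LK cells Spns2, Sphk1 and Mfsd2b led, at 38.3, 31.5 and 30.2 FPKM, ahead of Sphk2 at 8.87 FPKM.

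Genes with the most similar pattern were sought by Pearson's r of log2(FPKM + 1) over the 7 libraries, among 10648 genes. With 7 points, of which LK is often the extreme, many genes reach a high r, and the libraries share depth and scaling. For Mfsd2b the closest were Emilin2 (r = 0.992), Anxa2 (0.980), Parm1 (0.979), Tgfbr3 (0.975) and Gdf3 (0.966). Emilin2 stood at 2.28, 3.11 and 2.22 FPKM in wild-type LSK, 7.18, 7.13 and 5.66 FPKM in Uhrf1-/- LSK and 14.5 FPKM in LK cells, which repeats the order of the groups. For Sphk1 the closest were Abcb4 (0.993), Add2 (0.990), Rhd (0.988), Pdia2 (0.987) and Cldn13 (0.983). Rhd, a red cell membrane gene, stood at 5.28, 4.35 and 0.994 FPKM in wild-type LSK, 1.47, 0.815 and 0.720 FPKM in Uhrf1-/- LSK and 115.3 FPKM in LK cells. Like Sphk1, it was lowest in replicate 3 among the wild-type LSK libraries.

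For Spns2 the closest were 1700013G23Rik (r = 0.994), Tmem184b (0.992), S100a16 (0.989), Cdh5 (0.989) and Rcor2 (0.988). S100a16 stood at 9.66, 5.76 and 5.34 FPKM in wild-type LSK, 18.5, 21.8 and 20.1 FPKM in Uhrf1-/- LSK and 0.145 FPKM in LK cells. For S1pr4 they were Slc4a2 (0.985), Fam193b, Angptl6 and Sfi1 (0.983 each) and Cntln (0.982). Angptl6 stood at 29.9 FPKM in Uhrf1-/- replicate 3, against 7.26 to 15.6 FPKM in the other LSK libraries and 5.98 FPKM in LK cells. For Sphk2, which varied little, they were Smyd4 (0.936), 2310067B10Rik (0.935), Tmem254c (0.924), Gm20878 (0.909) and Limk2 (0.899).

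The genes around this route were read from 6 lists with 86 genes, of which 59 were tested between the genotypes. By limma, 0 of the 59 passed an adjusted p of 0.05, and 4 had an unadjusted p under 0.05, beside 591 of the 10608 genes tested. With the replicate block 2 passed, both lower in Uhrf1-/- cells, where 0.830% of all genes passed as lower. These were Lpar1 and Lpar6, receptors for lysophosphatidic acid, a lipid related to sphingosine-1-phosphate. The level of Lpar1 was 1.5, 1.83 and 3.30 FPKM in wild-type and 0.702, 0.294 and 0.598 FPKM in Uhrf1-/- LSK cells (log2 difference -1.04, limma adjusted p = 0.245, blocked adjusted p = 0.0261). The level of Lpar6 was 3.97, 9.39 and 7.10 FPKM and at 2.20, 3.18 and 2.22 FPKM (log2 difference -1.09, limma adjusted p = 0.328, blocked adjusted p = 0.0189). The genotype ranges did not overlap for either gene. Of the 59 genes, ranges did not overlap for 2 as higher and 5 as lower, beside 4.61% and 6.16% of all genes tested. Nothing is read from these counts, and the genes are named below as a description.

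Of 12 tested genes of ceramide synthesis, which supplies the sphingosine backbone, 3 had a positive and 9 a negative difference, with a median of -0.24. Ormdl3, a brake on the first enzyme of that pathway, had ranges that did not overlap, at 18.5, 20.2 and 20.7 FPKM in wild-type and 27.3, 27.5 and 25.0 FPKM in Uhrf1-/- cells. Of 7 tested genes of sphingosine and sphingosine-1-phosphate turnover, the lipid phosphatase gene Ppap2c measured 8.04 to 11.9 FPKM in wild-type and 12.6 to 15.0 FPKM in Uhrf1-/- cells. Aldh3a2, which oxidises the aldehyde that the lyase releases, measured 3.66, 7.14 and 5.14 FPKM in wild-type and 2.65, 2.60 and 3.49 FPKM in Uhrf1-/- cells. Its level was higher in each wild-type library than in each Uhrf1-/- library. The list median was -0.33.

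Of 10 tested genes that use ceramide or act on sphingomyelin, the median was -0.25. The sphingomyelinase gene Smpd2 measured 26.3 to 27.9 FPKM in wild-type and 19.6 to 22.1 FPKM in Uhrf1-/- cells, and the sphingomyelin synthase gene Sgms1 at 4.19 to 8.14 and 2.94 to 3.60 FPKM. Among 6 tested lipid carriers and related transporters (median 0.21) and 20 tested genes of receptor signalling (median -0.21), 0 had ranges that did not overlap. Among related receptors 4 were tested, with a median of -0.88, and S1pr5 was at 0 to 0.174 FPKM in the 7 libraries.

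**Figure D5:**
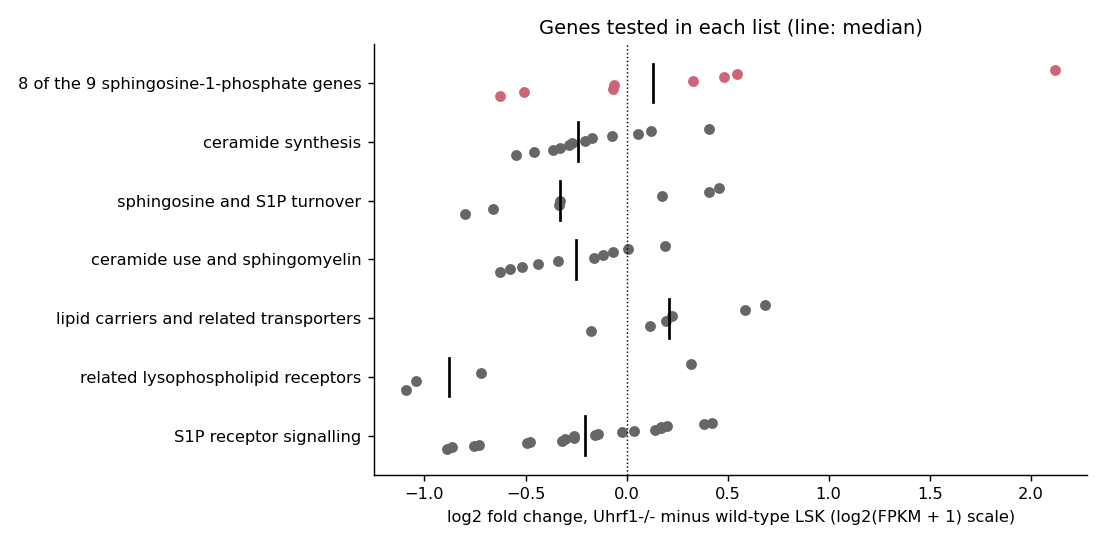
Log2 fold change between Uhrf1-/- and wild-type LSK cells (x axis, log2(FPKM + 1) scale) of each tested gene, by list (y axis), with the median as a line. Mfsd2b at 2.12 stands alone on the right, and the other members lie between -0.63 and 0.55, among the values of the 6 lists.

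In LK against wild-type LSK cells, 4 of 60 genes of the lists were called higher and 12 lower, beside 9.0% and 12.5% of all genes. The 4 were Sgpp1, a phosphatase of sphingosine-1-phosphate, Ugcg, which makes glucosylceramide, the apolipoprotein gene Apoa1 and the arrestin gene Arrb1. Sgpp1 stood at 10.4 FPKM in LK and 1.73 to 4.02 FPKM in wild-type LSK cells. Gnai2, the most abundant G protein gene of the signalling list, stood at 164.4 FPKM in LK and 303.9 to 381.5 FPKM in wild-type LSK cells, and was called lower.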

How the data were processed

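The table deposited by the authors gives 2 values per gene and library. Per the file headers these are a count and FPKM. The count values are not whole, were treated as a scaled signal deposited by the authors, and were divided by each library's most frequent value to estimate reads. Between 98.2% and 98.6% of low values (under 100 steps) were within 0.02 of a whole number of steps, so they look scaled, and no count model was run. Per the submitters' processing notes, the mm10 build, Cufflinks 2.1.1 and TopHat2 2.0.9 were used, with no role stated. FPKM are shares of a library, so a few dominant genes lower all others.

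Groups came from sample titles. The genotypes were compared with limma 3.58.1 (R 4.3.3) on log2(FPKM + 1) over 6 LSK libraries, with trend and robust moderation, Benjamini-Hochberg adjustment and a mean of at least 1 FPKM. The fit was tested on simulated data for this comparison (10608 genes, 200 of them changed). It recovered 1 gene at a log2 change of 1, 186 at 2 and 198 at 3, with 0, 18 and 14 false calls. In that setting it had little power for small changes. The changed genes were drawn above a minimum wild-type level that Mfsd2b, Sphk1 and S1pr2 did not reach. The noise was independent between libraries, without the replicate-3 differences, so the recovery may not hold for these members. Alternatives were the pseudocount, the filter, the count values, median-of-ratios scaling, leaving out libraries, the replicate block and all 7 libraries. Deviations from group means correlated at 0.349, 0.332 and 0.645 within replicate numbers 1, 2 and 3, all above the limit of 0.1. Same-numbered libraries were treated as pairs in the replicate block and in the differences by replicate number, and not in the unblocked fit. The labels do not state a pairing. Libraries of unlike number also reached 0.213 and 0.159, so passing the limit does not establish pairs for numbers 1 and 2.

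The members and lists were chosen with earlier results of these data known. Named list genes were those called in either fit, otherwise up to 3 per list with the largest change among those whose ranges did not overlap. Klf2, Cd69, Gnai2, S1pr5, the genes called in LK and the examples among similar genes were chosen after their values were seen. Gene coordinates are from RefSeq, GRCm38.p6. Promoter windows matched 8 members (not S1pr1), and those of Sgpl1, Sphk2, Spns2, S1pr2 and S1pr3 are not printed. Overlapping exons were taken from GENCODE M21. Proteins were not analysed here.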

Additional observations from a re-analysis of the deposited data

How the results depend on the processing

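The direction of Mfsd2b, Spns2, Sphk1, Sgpl1, S1pr2 and S1pr4 between the genotypes was the same under all 13 alternatives. With 1 library left out, S1pr1 ranged from -0.275 to 0.342 (positive without wild-type replicate 2) and Sphk2 from -0.223 to 0.0357 (positive without replicate 1 of either genotype). The log2 difference of Mfsd2b was 1.98 to 2.33 with 1 library left out, 2.12 with no filter and 2.13 without both replicate-3 libraries, and it did not pass the threshold in these. Over all genes 12 were called higher and 6 lower. Replicate block: 131 higher and 88 lower, and 2 rather than 0 list genes lower. The block changed no member's call. With 1 library left out, 0 to 3 were higher and 0 to 1 lower. With no filter, or without both replicate-3 libraries, limma called 0 higher and 0 lower, with 967 and 487 genes under 0.05 before adjustment. On the count values 10 were lower. In LK, 2 members were called, 3 to 4 with a wild-type library left out and 4 with the smaller pseudocount or on the count values. The causes were not tested. Low members limit precision: Sphk1 rests on an estimated 9 to 17 reads in Uhrf1-/- cells. The LK library has no replicate.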
